A study of Homo sapiens with 12 samples.

Results

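The 30 genes described here encode enzymes that make cholesterol, proteins that sense it and control that synthesis, and proteins that move sterols within and out of the cell. They were taken from a list of symbols and matched to the Ensembl IDs of the count table, and all 30 were found among its 60663 genes. By role, 7 belong to the mevalonate arm, 3 to the steps between farnesyl diphosphate and lanosterol, 8 to the steps between lanosterol and cholesterol, 7 to the control of the SREBP transcription factors, and 5 to sterol transport and the targets of liver X receptors. RNA was measured by sequencing in RCC4, a human cell line of clear cell renal carcinoma. By the labels, VHL- cells have lost VHL and VHL+ cells are the same line with VHL put back; VHL is a tumour suppressor whose protein marks hypoxia-inducible factors for breakdown. Each line received 5 µM JQ1, an inhibitor of BET bromodomain proteins that the labels call a MYC inhibitor, or DMSO, its solvent, so the 4 groups are VHL- with JQ1, VHL- with DMSO, VHL+ with JQ1 and VHL+ with DMSO, with 3 libraries each. Both lines were kept in a glucose-rich medium with bovine serum and geneticin. The labels do not give the vector or promoter behind the reintroduced VHL, whether either line is 1 clone, the time of treatment or whether libraries came from separate cultures, and the spread behind the p-values may therefore be technical.

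Cholesterol is built from acetyl-CoA through mevalonate, isoprenoid diphosphates, squalene and lanosterol. The enzymes of this route are switched on together by SREBP2, the product of SREBF2, whose precursor lies in the membrane of the endoplasmic reticulum bound to SCAP. When sterols are plentiful, INSIG1 and INSIG2 hold SCAP there. When sterols run low, SCAP carries the precursor to the Golgi, where the proteases MBTPS1 and MBTPS2 release the active fragment. INSIG1 is itself a target of SREBP, which closes a feedback loop. Oxidised sterols act through liver X receptors, which raise the exporters ABCA1 and ABCG1 and the ubiquitin ligase MYLIP. Clear cell renal carcinoma is known for cells that store lipid, cholesterol esters included.

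Promoter windows of 300 bases, 250 before and 50 after the start of a RefSeq transcript on GRCh38.p14, were found by symbol for 26 of the 30 members. ACAT2, FDFT1, SQLE and ABCG1 had no window in the table used. The windows below belong to members on which the results turn. SREBF2 is the member whose window holds the letters TCACNCCAC, a common form of the sterol regulatory element to which SREBP binds. INSIG1 differed between the lines in its JQ1 effect, TM7SF2, DHCR7 and IDI1 rose with JQ1 in VHL+ cells, and INSIG2 was higher in VHL- cells. DHCR7, IDI1 and INSIG2 had several windows: for DHCR7 and IDI1 the one with most marked letters is shown, and for INSIG2, whose windows held none, the first listed. Capitals mark TCACNCCAC and CCAAT, the letters bound by NF-Y, on either strand, so that CCAAT also appears as ATTGG. The windows lie at chr22:41832855-41833154 (plus strand, SREBF2), chr7:155297628-155297927 (plus, INSIG1), chr11:65111622-65111921 (plus, TM7SF2), chr11:71448344-71448643 (minus, DHCR7), chr10:1048837-1049136 (minus, IDI1) and chr2:118088221-118088520 (plus, INSIG2), each reaching into the first exon of its transcript.
SREBF2: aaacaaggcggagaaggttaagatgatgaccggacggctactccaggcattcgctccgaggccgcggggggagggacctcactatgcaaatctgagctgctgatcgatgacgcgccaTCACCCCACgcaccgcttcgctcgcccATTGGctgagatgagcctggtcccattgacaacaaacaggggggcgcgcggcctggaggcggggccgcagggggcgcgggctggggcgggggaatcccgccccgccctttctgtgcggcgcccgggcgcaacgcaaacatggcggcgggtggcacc
INSIG1: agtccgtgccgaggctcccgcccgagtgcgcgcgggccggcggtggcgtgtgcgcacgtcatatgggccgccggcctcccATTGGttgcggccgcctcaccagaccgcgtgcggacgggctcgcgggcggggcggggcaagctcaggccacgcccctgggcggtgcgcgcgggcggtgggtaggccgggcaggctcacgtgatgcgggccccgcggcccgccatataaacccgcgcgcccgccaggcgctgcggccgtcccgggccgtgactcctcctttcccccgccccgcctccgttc
TM7SF2: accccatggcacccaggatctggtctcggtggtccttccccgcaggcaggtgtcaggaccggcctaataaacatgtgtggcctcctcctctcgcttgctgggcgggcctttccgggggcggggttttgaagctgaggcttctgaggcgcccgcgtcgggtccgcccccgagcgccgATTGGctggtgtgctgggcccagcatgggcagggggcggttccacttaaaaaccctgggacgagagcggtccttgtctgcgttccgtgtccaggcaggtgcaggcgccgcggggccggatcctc
DHCR7: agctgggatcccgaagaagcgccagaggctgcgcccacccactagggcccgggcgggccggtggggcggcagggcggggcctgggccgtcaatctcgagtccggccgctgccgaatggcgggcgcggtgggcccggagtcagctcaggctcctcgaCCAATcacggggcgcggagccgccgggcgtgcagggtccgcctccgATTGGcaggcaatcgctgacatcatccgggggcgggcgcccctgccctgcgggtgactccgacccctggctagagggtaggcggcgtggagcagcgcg
IDI1: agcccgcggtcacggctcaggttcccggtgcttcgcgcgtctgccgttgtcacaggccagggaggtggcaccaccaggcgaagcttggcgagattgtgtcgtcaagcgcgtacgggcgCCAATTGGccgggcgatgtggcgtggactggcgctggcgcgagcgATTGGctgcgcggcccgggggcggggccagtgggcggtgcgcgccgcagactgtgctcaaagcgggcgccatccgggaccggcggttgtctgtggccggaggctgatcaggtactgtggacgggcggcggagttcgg
INSIG2: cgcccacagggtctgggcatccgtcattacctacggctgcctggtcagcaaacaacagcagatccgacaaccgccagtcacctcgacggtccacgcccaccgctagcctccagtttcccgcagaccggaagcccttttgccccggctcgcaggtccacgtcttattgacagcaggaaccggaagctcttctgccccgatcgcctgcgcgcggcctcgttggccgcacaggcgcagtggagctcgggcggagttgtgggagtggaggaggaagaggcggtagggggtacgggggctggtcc

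In SREBF2 the sterol element ran from base -133 to base -125 relative to the transcript start, and an inverted CCAAT ran from -106 to -102. The letters TCACNCCAC were in the windows of 1 of the 26 members (3.85%) and of 379 of 27305 genes with a window (1.39%). CCAAT was in 18 of the 26 members (69.2%), against 39.7% of all genes with a window. GGGCGG, a letter string bound by SP1, was in 22 members (84.6%, against 48.3% of all), and CACGTG, the E-box, in 5 (19.2%, against 8.77%). The core of the hypoxia response element was in 8 members as ACGTG (30.8%, against 24.9%), which overlaps CACGTG, and in 20 as GCGTG (76.9%, against 40.6%). Both strands of every window of a gene were searched, and these matches describe letters only. The share of G and C in the members' windows ran between 57% (a DHCR7 window not shown, the one shown having 75%) and 78.3% (INSIG1). The genes set against them were not matched for it, and its part in these shares was not tested. Of the 10 members that rose with JQ1 in VHL+ cells, 8 had a window and 7 of those held CCAAT, SCAP being the exception. CCAAT was also in 6 of the 7 that fell with JQ1 in VHL- cells, in 15 of the 17 with a window that were lower in VHL- cells under JQ1, and in 11 of 12 that were lower under DMSO. Of the 4 members that were higher in VHL- cells under DMSO, EBP held CCAAT, while INSIG2, MBTPS2 and ABCA1 did not. The call on ABCA1 was lost in 10 of 23 alternative settings. CCAAT was not counted among all genes called in each direction, and a link between these letters and the direction of change was not tested.

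Total counts per library ran between 15452949 (VHL- with JQ1, replicate 2) and 32502310 (VHL+ with DMSO, replicate 3). Levels below are CPM, the counts scaled to a common library size by TMM. Changes are on the log2 scale, with p-values of the quasi-likelihood test in edgeR, adjusted after Benjamini and Hochberg over 20714 tested genes, and pass below 0.05. VHL itself averaged 32.7 ± 2.39 CPM (VHL- with JQ1), 26.4 ± 1.64 CPM (VHL- with DMSO), 212 ± 14 CPM (VHL+ with JQ1) and 70.3 ± 7.62 CPM (VHL+ with DMSO), in the direction of the labels (SD, n = 3 each). It was thus also higher with JQ1 than with DMSO in VHL+ cells, and its part in the changes there was not tested. CA9, a target of hypoxia-inducible factors that marks this carcinoma, averaged 28.1 ± 5.36 and 83.5 ± 12.3 CPM in VHL- cells with JQ1 and with DMSO, against 0.531 ± 0.484 and 0.126 ± 0.0216 CPM in VHL+ cells with JQ1 and with DMSO. All 9 markers of renal epithelium and this carcinoma, CA9 among them, reached 1 CPM in at least 1 library, but the lowest value among them was 0 CPM. Under each treatment 5 of the 9 markers were lower and 2 higher in VHL- cells. Their summed level in VHL- cells was 2530 to 2830 CPM with JQ1 and 2290 to 2920 CPM with DMSO, against 2490 to 2860 and 2340 to 2620 CPM in VHL+ cells with JQ1 and with DMSO. VIM alone reached 1780 CPM in the library where it was highest, so 1 marker weighs heavily in these sums. The kidney cadherin CDH16 averaged 3.31 ± 0.356 CPM in VHL- cells and 43.8 ± 4.4 CPM in VHL+ cells under JQ1, and 11.8 ± 1.93 and 145 ± 41.1 CPM under DMSO. CDH6, another cadherin of kidney, averaged 69.3 ± 5.4 CPM in VHL- cells and 200 ± 10.8 CPM in VHL+ cells under JQ1, and 84.5 ± 3.36 and 488 ± 144 CPM under DMSO. The part of these marker differences in the sterol results was not tested. Of 5 markers each for endothelial cells, fibroblasts and leukocytes, 4 stayed under 1 CPM in every library, and the highest values were 9.89 CPM (ESAM), 2.98 CPM (COL1A1) and 4.36 CPM (CSF1R).

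As a group, the sterol genes were lower in VHL- cells than in VHL+ cells. More of them passed under JQ1 than under DMSO, and so did more of all tested genes. Under JQ1, 19 of the 28 tested members were lower in VHL- cells, 2 were higher and 7 did not pass, which is 75% called, against 40.9% of all tested genes (21.2% lower and 19.7% higher; median log2 -0.92 over members and 0.03 over all tested genes). Under DMSO, 13 were lower, 4 were higher and 11 did not pass, which is 60.7% called, against 30.7% of all tested genes (15.9% lower and 14.8% higher; median log2 -0.35 over members and 0.00 over all). With JQ1 against DMSO in VHL+ cells, 10 members rose, 0 fell and 18 did not pass, a share of 35.7% that is near the 31.8% of all tested genes, although 15.3% of all genes rose and 16.5% fell (median log2 0.30 over members and -0.03 over all). With JQ1 against DMSO in VHL- cells, 2 rose, 7 fell and 19 did not pass, and the 32.1% called among members equals the 32.1% of all tested genes (14.6% rose and 17.5% fell; median log2 -0.24 over members and 0.03 over all). These comparisons share libraries with each other, so their counts are not independent. The members were also chosen with earlier results of these data known, so their shares are a description. In RNA from whole cultures, fewer cells of a kind and less RNA per cell cannot be told apart. With total counts in place of TMM, 9 members rose and 1 fell in VHL+ cells (SCAP no longer passed and MBTPS2 fell), and the median of all tested genes moved by -0.11 there and by 0.16 between the lines under JQ1. Under that scaling the share of higher among called genes was 34.1% in place of 48.1% for JQ1 in VHL+ cells, and 62.1% in place of 48.1% for the lines under JQ1, where 18 members were lower and 2 higher. For the lines under DMSO it was 54.9% in place of 48.1%, with 10 members lower and 4 higher.

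**Figure D1:**
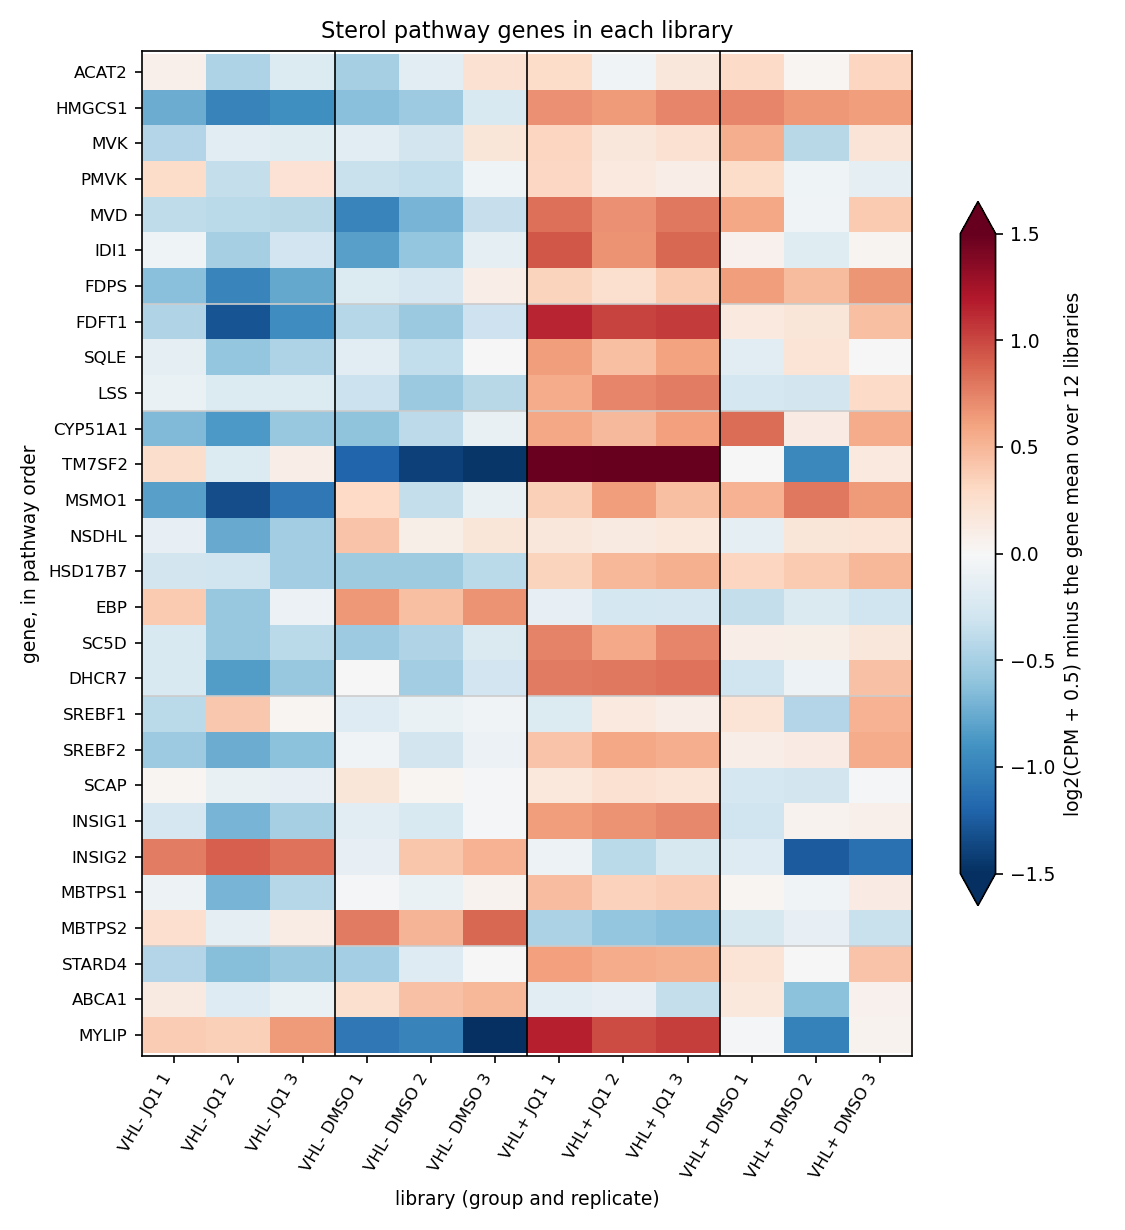
Level of each tested sterol gene (down the page, in pathway order) in each of the 12 libraries, as log2(CPM + 0.5) minus the mean of that gene over all libraries; red is above and blue below that mean. Most enzymes are red in the 3 libraries of VHL+ cells with JQ1 and blue in VHL- cells, while INSIG2 and MBTPS2 show the opposite between the lines.

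The summed level of the 18 enzymes was 662, 480 and 553 CPM in VHL- cells with JQ1, against 665, 587 and 710 CPM in VHL- cells with DMSO. In VHL+ cells it was 1240, 1180 and 1240 CPM with JQ1, against 836, 824 and 965 CPM with DMSO. The 3 JQ1 libraries of VHL+ cells thus lay above all others, and every VHL- library lay below every VHL+ library. Replicate 1 of VHL- cells with JQ1 was the highest of its group. The median coefficient of variation over the members was 13.3% in VHL- cells with JQ1 and 12.6% with DMSO, and 5.64% in VHL+ cells with JQ1 and 13.7% with DMSO.

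In the mevalonate arm, 4 of 7 enzymes were lower in VHL- cells under JQ1 and the same number under DMSO; HMGCS1, MVD, IDI1 and FDPS passed in both. HMGCS1 (chromosome 5, 43289395 to 43313512), which joins acetyl-CoA and acetoacetyl-CoA at the entry of the route, had 20.6, 17.2 and 18.2 CPM in VHL- cells with JQ1, against 22.4, 23.7 and 29.8 CPM with DMSO. In VHL+ cells HMGCS1 had 56.5, 54.4 and 58.3 CPM with JQ1, against 58.5, 55.1 and 54.1 CPM with DMSO. Every VHL- library was below every VHL+ library, and in VHL- cells every JQ1 library was below every DMSO library. HMGCS1 was 3.02-fold lower in VHL- cells under JQ1 (log2 -1.59, SE 0.132, adjusted p = 1.21e-07) and 2.21-fold lower under DMSO (log2 -1.14, SE 0.13, adjusted p = 4.37e-06). With JQ1 it fell in VHL- cells (log2 -0.44, adjusted p = 0.0178) and had a log2 of 0.01 in VHL+ cells (adjusted p = 0.95). That fall did not pass when VHL- JQ1 replicate 2 (adjusted p = 0.0744), VHL- JQ1 replicate 3 (0.0828) or VHL- DMSO replicate 3 (0.0635) was left out. Of the exon bases of HMGCS1, 15% overlap other annotated genes, and strand use in counting is not stated.

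FDPS makes farnesyl diphosphate, the branch point to sterols and to prenyl groups. It had 28.6, 22 and 25.8 CPM in VHL- cells with JQ1, against 38.3, 37 and 47.5 CPM with DMSO. In VHL+ cells FDPS had 55.7, 52.3 and 58.3 CPM with JQ1, against 68.8, 61.6 and 70.2 CPM with DMSO. Its JQ1 libraries were below its DMSO libraries in both lines, but the change passed in VHL- cells (log2 -0.68, SE 0.136, adjusted p = 0.0012) and not in VHL+ cells (log2 -0.27, adjusted p = 0.136). FDPS was lower in VHL- cells under JQ1 (log2 -1.12, adjusted p = 9.69e-06) and under DMSO (log2 -0.71, adjusted p = 0.000708). FDPS has 8 named pseudogenes and 18.6% of its exon bases overlap other genes, so its count is uncertain.

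IDI1, the isomerase that yields dimethylallyl diphosphate, had 41.6, 30.7 and 35.6 CPM in VHL- cells with JQ1, against 24.5, 29.1 and 39.3 CPM with DMSO. In VHL+ cells IDI1 had 83.9, 69.7 and 79.3 CPM with JQ1, against 45.8, 38.4 and 45.1 CPM with DMSO. The rise in VHL+ cells was 1.80-fold (log2 0.85, SE 0.166, adjusted p = 0.00109) and its libraries did not overlap, while in VHL- cells the libraries overlapped (log2 0.22, adjusted p = 0.337). IDI1 was lower in VHL- cells under JQ1 (log2 -1.11, adjusted p = 8.23e-05). Under DMSO the libraries of the lines overlapped and the call (log2 -0.48, adjusted p = 0.0393) was lost in 13 of 23 alternative settings, among them the fits without VHL- DMSO replicate 1 (adjusted p = 0.18), VHL- DMSO replicate 2 (0.111), VHL+ DMSO replicate 1 (0.107) or VHL+ DMSO replicate 3 (0.118), or without any 1 of the 3 VHL+ JQ1 libraries or VHL- JQ1 replicate 3 (adjusted p between 0.0545 and 0.0637). Of its exon bases, 14.8% overlap other genes.

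MVD, which decarboxylates mevalonate diphosphate, had 27.6, 27.2 and 26.9 CPM in VHL- cells with JQ1, against 17.8, 22 and 28.3 CPM with DMSO. In VHL+ cells MVD had 64.5, 58.2 and 62.8 CPM with JQ1, against 54.2, 34.7 and 47.4 CPM with DMSO. The 2 lines did not overlap under either treatment, and MVD was 2.27-fold lower in VHL- cells under JQ1 (log2 -1.18, adjusted p = 5.99e-05) and 2.00-fold lower under DMSO (log2 -1.0, adjusted p = 0.000314). Its JQ1 effect did not pass in VHL- cells (log2 0.26, adjusted p = 0.263) or in VHL+ cells (log2 0.44, adjusted p = 0.0567), where the libraries nevertheless did not overlap. ACAT2, the thiolase of the cytosol, and the kinases MVK and PMVK passed in none of the 4 comparisons. Their group means lay between 39.1 and 51.6 CPM (ACAT2), 12.9 and 18.4 CPM (MVK) and 15.5 and 21.2 CPM (PMVK), and 52.3% of the exon bases of ACAT2 overlap a gene on the opposite strand. Between the lines under JQ1, the libraries of MVK did not overlap (log2 -0.52, adjusted p = 0.0529). MVK passed there as lower in VHL- cells with DESeq2 (adjusted p = 0.0476), with no filter on low counts (0.0154) and in a fit of the compared groups (0.00944). ACAT2 and PMVK passed in some fits with 1 library left out.

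The 3 enzymes between farnesyl diphosphate and lanosterol all rose with JQ1 in VHL+ cells, none passed in VHL- cells, and all 3 were lower in VHL- cells under JQ1. FDFT1, squalene synthase, which commits the route to sterols, had 72.6, 40 and 51.7 CPM in VHL- cells with JQ1, against 73.7, 67.3 and 79.7 CPM with DMSO. In VHL+ cells FDFT1 had 220, 201 and 207 CPM with JQ1, against 110, 113 and 135 CPM with DMSO. Replicate 1 of VHL- cells with JQ1 lay among the DMSO libraries, and the other two lay below them. FDFT1 rose 1.75-fold in VHL+ cells (log2 0.81, SE 0.172, adjusted p = 0.00209) and had a log2 of -0.42 in VHL- cells (SE 0.173, adjusted p = 0.0727). It was 3.81-fold lower in VHL- cells under JQ1 (log2 -1.93, SE 0.178, adjusted p = 4.3e-07) and 1.62-fold lower under DMSO (log2 -0.70, adjusted p = 0.00555).

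SQLE, the oxygen-using squalene epoxidase, had 70.4, 51.4 and 56 CPM in VHL- cells with JQ1, against 68.6, 59.5 and 76.7 CPM with DMSO. In VHL+ cells SQLE had 119, 106 and 117 CPM with JQ1, against 68.6, 88.7 and 77.3 CPM with DMSO. Under DMSO the lines overlapped (log2 -0.20, adjusted p = 0.342), while under JQ1 they did not (log2 -0.94, SE 0.147, adjusted p = 0.000114). SQLE rose with JQ1 in VHL+ cells (log2 0.54, adjusted p = 0.00979) and did not pass in VHL- cells (log2 -0.20, adjusted p = 0.309). LSS, which folds epoxysqualene into lanosterol, had 74, 68.6 and 68.8 CPM in VHL- cells with JQ1, against 63.2, 53.8 and 59.1 CPM with DMSO. In VHL+ cells LSS had 116, 132 and 136 CPM with JQ1, against 65.9, 65.6 and 96.5 CPM with DMSO. The JQ1 libraries of LSS were above the DMSO libraries in both lines, and the rise passed in VHL+ cells (log2 0.75, SE 0.148, adjusted p = 0.00114) but not in VHL- cells (log2 0.26, adjusted p = 0.187). Between the lines, LSS was lower in VHL- cells under JQ1 (log2 -0.86, adjusted p = 0.000277) and did not pass under DMSO (log2 -0.37, adjusted p = 0.0672).

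Of the 8 enzymes that turn lanosterol into cholesterol, 7 were lower in VHL- cells under JQ1, EBP being the exception, and under DMSO 5 were lower and EBP was higher. With JQ1 against DMSO, 3 fell and 1 rose in VHL- cells, and 3 rose and 0 fell in VHL+ cells. TM7SF2 (chromosome 11, 65111845 to 65116384), a sterol C14 reductase, rose in both lines. It had 12.9, 9.12 and 11.5 CPM in VHL- cells with JQ1, against 4.39, 3.73 and 3.55 CPM with DMSO. In VHL+ cells TM7SF2 had 30.6, 33.4 and 33.1 CPM with JQ1, against 10.6, 5.19 and 11.8 CPM with DMSO. No library with JQ1 overlapped one with DMSO in either line, and VHL+ DMSO replicate 2 was the lowest of its group. The rise was 2.88-fold in VHL- cells (log2 1.53, SE 0.239, adjusted p = 0.000162) and 3.49-fold in VHL+ cells (log2 1.80, SE 0.226, adjusted p = 2.67e-05). TM7SF2 was 2.89-fold lower in VHL- cells under JQ1 (log2 -1.53, adjusted p = 6.35e-05) and 2.38-fold lower under DMSO (log2 -1.25, adjusted p = 0.000743).

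MSMO1 (chromosome 4, 165327623 to 165343160), the oxygen-using sterol C4 methyl oxidase, moved the other way in VHL- cells. It had 16, 11.1 and 13.3 CPM in VHL- cells with JQ1, against 35.3, 22.3 and 26.4 CPM with DMSO. In VHL+ cells MSMO1 had 36.8, 44.6 and 39.4 CPM with JQ1, against 41.2, 50.1 and 45 CPM with DMSO. It fell 2.06-fold in VHL- cells (log2 -1.05, SE 0.175, adjusted p = 0.000292), the largest fall among the members there, and had a log2 of -0.17 in VHL+ cells (adjusted p = 0.468). MSMO1 was lower in VHL- cells under JQ1 (log2 -1.57, adjusted p = 4.17e-06) and under DMSO (log2 -0.70, adjusted p = 0.00495), with no overlap in either.

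NSDHL, its partner in removing the C4 methyl groups, had 38.8, 25 and 29.4 CPM in VHL- cells with JQ1, against 57.1, 44.9 and 48 CPM with DMSO. In VHL+ cells NSDHL had 47.5, 46.6 and 47.4 CPM with JQ1, against 38.2, 48.2 and 48.9 CPM with DMSO. It fell in VHL- cells (log2 -0.68, SE 0.159, adjusted p = 0.00394) and was lower there than in VHL+ cells under JQ1 (log2 -0.60, adjusted p = 0.00713), and did not pass between the lines under DMSO (log2 0.15, adjusted p = 0.52). EBP, the sterol isomerase, had 37.1, 18.9 and 26.6 CPM in VHL- cells with JQ1, against 44.7, 38.9 and 45.2 CPM with DMSO. In VHL+ cells EBP had 25.8, 23.4 and 23.5 CPM with JQ1, against 21.9, 24.2 and 22.9 CPM with DMSO. EBP was thus the enzyme that was higher in VHL- cells under DMSO (log2 0.90, SE 0.18, adjusted p = 0.00113), it fell with JQ1 there (log2 -0.63, adjusted p = 0.013), and under JQ1 the lines overlapped (log2 0.19, adjusted p = 0.428). Its fall did not pass without VHL- JQ1 replicate 2 (log2 -0.42, adjusted p = 0.0573) or without VHL- JQ1 replicate 3 (log2 -0.60, adjusted p = 0.0617).

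DHCR7 (chromosome 11, 71428193 to 71452868), which makes cholesterol in the last step of the Kandutsch-Russell branch, had 106, 69.7 and 84.2 CPM in VHL- cells with JQ1, against 126, 87.1 and 103 CPM with DMSO. In VHL+ cells DHCR7 had 215, 217 and 220 CPM with JQ1, against 102, 118 and 169 CPM with DMSO. Its coefficient of variation in VHL+ cells was 1.18% with JQ1, against 27.1% with DMSO. DHCR7 rose 1.67-fold in VHL+ cells (log2 0.74, SE 0.191, adjusted p = 0.00755) and had a log2 of -0.28 in VHL- cells (adjusted p = 0.285). The lines overlapped under DMSO (log2 -0.30, adjusted p = 0.254), and under JQ1 DHCR7 was 2.50-fold lower in VHL- cells (log2 -1.32, SE 0.194, adjusted p = 6.14e-05).

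SC5D, the oxygen-using desaturase of the step before, had 28.7, 22.5 and 25.3 CPM in VHL- cells with JQ1, against 23, 24.6 and 28.9 CPM with DMSO. In VHL+ cells SC5D had 56.8, 50.4 and 56.5 CPM with JQ1, against 36.3, 35.8 and 38.1 CPM with DMSO. It rose in VHL+ cells (log2 0.57, SE 0.128, adjusted p = 0.00308), overlapped in VHL- cells (log2 0.00, adjusted p = 0.984), and was lower in VHL- cells under JQ1 (log2 -1.09, adjusted p = 7.65e-06) and DMSO (log2 -0.53, adjusted p = 0.00506). CYP51A1, the oxygen-using C14 demethylase, and HSD17B7, the C3 ketoreductase, were low and did not pass with JQ1 in either line. CYP51A1 had 2.6, 2.2 and 2.8 CPM in VHL- cells with JQ1 and 6.84, 6.36 and 7 CPM in VHL+ cells with JQ1, and 2.74, 3.22 and 4.05 CPM in VHL- cells with DMSO, against 8.29, 4.84 and 6.68 CPM in VHL+ cells with DMSO. HSD17B7 had 3.69, 3.63 and 3.03 CPM in VHL- cells with JQ1 and 5.93, 6.68 and 6.83 CPM in VHL+ cells with JQ1, and 3.01, 3.02 and 3.33 CPM in VHL- cells with DMSO, against 5.84, 6.18 and 6.68 CPM in VHL+ cells with DMSO. Neither gene overlapped between the lines: CYP51A1 was lower in VHL- cells under JQ1 (log2 -1.40, adjusted p = 0.000122) and DMSO (log2 -0.98, adjusted p = 0.00197), and so was HSD17B7 (log2 -0.91, adjusted p = 0.000496, and log2 -1.0, adjusted p = 0.000215). The count of CYP51A1 is uncertain, since 83.2% of its exon bases overlap other genes, 79.4% on the same strand, and it has 3 named pseudogenes; HSD17B7 has 2.

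**Figure D2:**
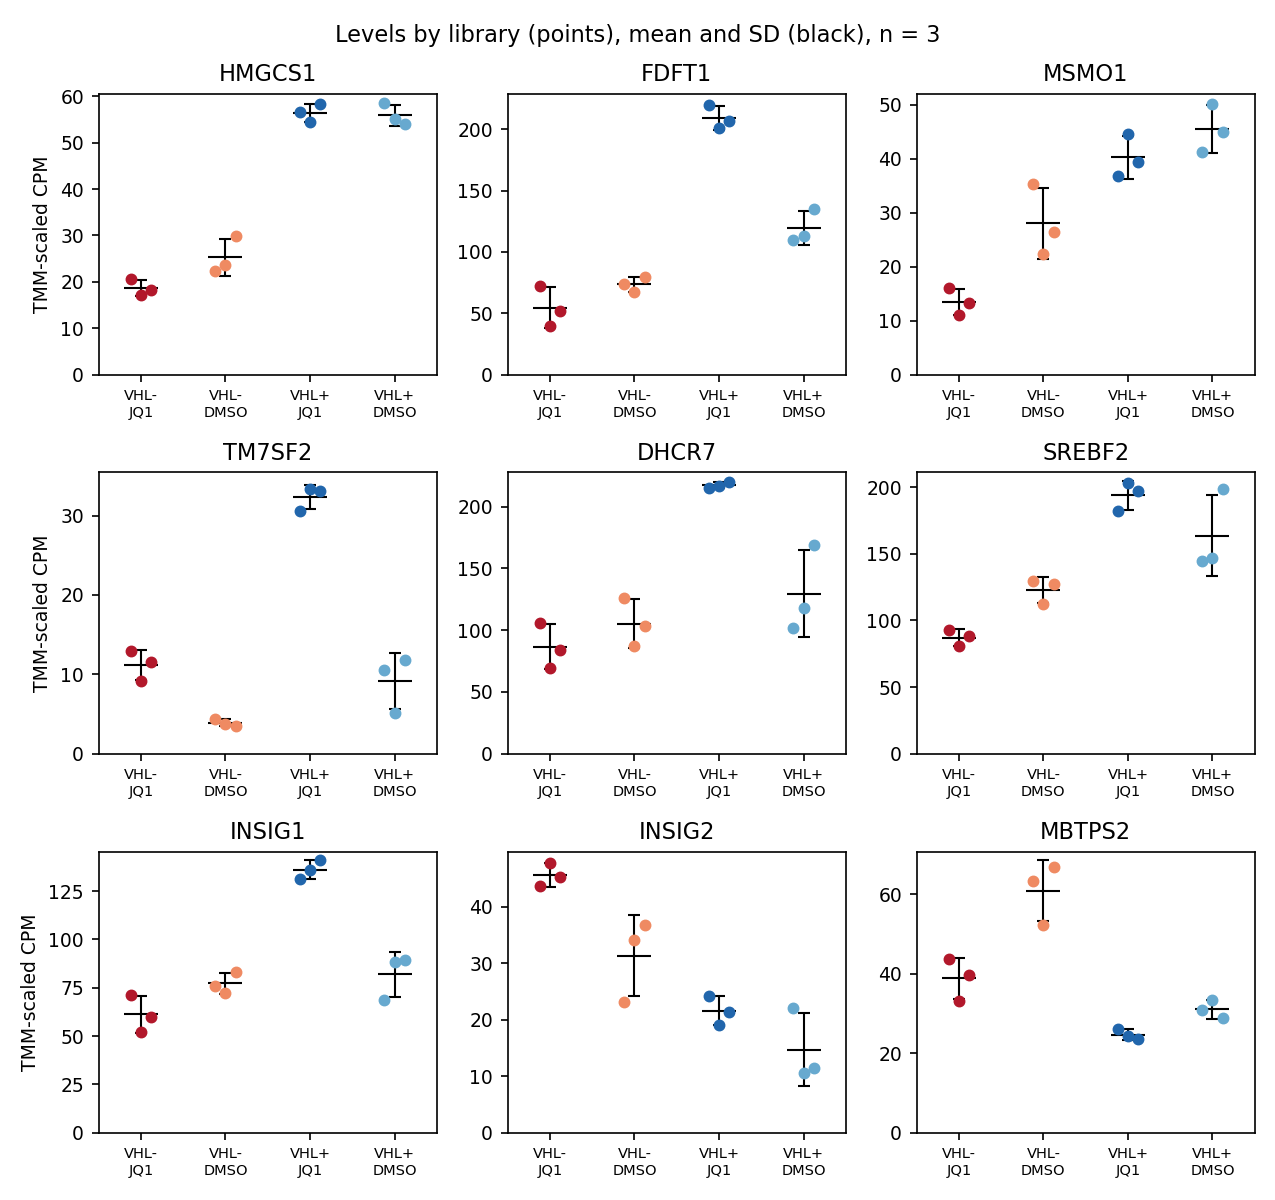
Level in CPM (vertical axis, starting at 0, TMM-scaled) of 9 sterol genes in each library, by group on the horizontal axis; points are libraries, and black bars are the mean and SD of 3. FDFT1, DHCR7 and INSIG1 are highest in VHL+ cells with JQ1, TM7SF2 is higher with JQ1 in both lines, MSMO1 is lowest in VHL- cells with JQ1, and INSIG2 and MBTPS2 are higher in VHL- cells.

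Among the 7 genes of SREBP control, 3 were lower and 2 were higher in VHL- cells under JQ1, and 1 was lower and 2 were higher under DMSO. SREBF2 (chromosome 22, 41833079 to 41907308), which encodes the factor that drives sterol synthesis and whose window held the sterol element, had 92.8, 80.5 and 88.3 CPM in VHL- cells with JQ1, against 130, 112 and 127 CPM with DMSO. In VHL+ cells SREBF2 had 182, 203 and 197 CPM with JQ1, against 145, 147 and 199 CPM with DMSO. In VHL- cells its JQ1 libraries were all below its DMSO libraries, and in VHL+ cells they overlapped. SREBF2 fell in VHL- cells (log2 -0.49, SE 0.138, adjusted p = 0.0124) and had a log2 of 0.25 in VHL+ cells (adjusted p = 0.188). It was 2.22-fold lower in VHL- cells under JQ1 (log2 -1.15, SE 0.14, adjusted p = 9.02e-06). Under DMSO the difference was smaller (log2 -0.41, adjusted p = 0.0316) and was not called without VHL- DMSO replicate 2 (adjusted p = 0.115), VHL- DMSO replicate 3 (0.0546), VHL+ DMSO replicate 3 (0.224), VHL- JQ1 replicate 3 (0.0564), VHL+ JQ1 replicate 2 (0.0503) or VHL+ JQ1 replicate 3 (0.0568). SREBF1, whose products mainly drive fatty acid synthesis, passed in none of the comparisons, with group means between 54.6 and 65.7 CPM.

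INSIG1 (chromosome 7, 155297776 to 155310235), the retention protein that SREBP itself induces, had 71.5, 52.3 and 60 CPM in VHL- cells with JQ1, against 76, 72.4 and 83.4 CPM with DMSO. In VHL+ cells INSIG1 had 131, 136 and 141 CPM with JQ1, against 68.6, 88.1 and 89.4 CPM with DMSO. The JQ1 libraries lay below the DMSO libraries in VHL- cells and above them in VHL+ cells. The rise in VHL+ cells passed (log2 0.73, SE 0.14, adjusted p = 0.000945), and the value in VHL- cells did not (log2 -0.33, SE 0.14, adjusted p = 0.0787). Between the lines INSIG1 overlapped under DMSO (log2 -0.09, adjusted p = 0.685) and was 2.22-fold lower in VHL- cells under JQ1 (log2 -1.15, SE 0.141, adjusted p = 1.06e-05).

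INSIG2 (chromosome 2, 118088452 to 118110997), the other retention protein, had 43.7, 47.8 and 45.3 CPM in VHL- cells with JQ1, against 23.2, 34.1 and 36.7 CPM with DMSO. In VHL+ cells INSIG2 had 24.2, 19.1 and 21.4 CPM with JQ1, against 22.1, 10.5 and 11.5 CPM with DMSO. It differed from INSIG1 in being higher in VHL- cells under both treatments, 2.12-fold under JQ1 (log2 1.08, SE 0.233, adjusted p = 0.00166) and 2.14-fold under DMSO (log2 1.10, SE 0.234, adjusted p = 0.00193). Its JQ1 effect did not pass in VHL- cells (log2 0.54, adjusted p = 0.0825), where the libraries did not overlap, or in VHL+ cells (log2 0.55, adjusted p = 0.0842), where they did. Without VHL+ DMSO replicate 1, the rise passed in VHL+ cells (log2 0.97, adjusted p = 0.00114) and in VHL- cells (log2 0.53, adjusted p = 0.0173). With no filter on low counts it also passed in both lines (adjusted p = 0.0125 in VHL+ cells and 0.0385 in VHL- cells).

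MBTPS2 (chromosome X, 21839636 to 21885424), the protease that makes the second cut in SREBP, had 43.6, 33.2 and 39.6 CPM in VHL- cells with JQ1, against 63.3, 52.2 and 66.9 CPM with DMSO. In VHL+ cells MBTPS2 had 26.2, 24.3 and 23.6 CPM with JQ1, against 30.8, 33.4 and 28.8 CPM with DMSO. It was higher in VHL- cells under JQ1 (log2 0.65, SE 0.137, adjusted p = 0.00134) and DMSO (log2 0.97, SE 0.136, adjusted p = 4.06e-05), and its JQ1 libraries lay below its DMSO libraries in both lines. The fall passed in VHL- cells (log2 -0.65, adjusted p = 0.00175) and not in VHL+ cells (log2 -0.33, adjusted p = 0.0787), and 13.4% of its exon bases overlap a gene on the same strand. MBTPS1, which makes the first cut, had 202, 131 and 158 CPM in VHL- cells with JQ1, against 207, 199 and 220 CPM with DMSO. In VHL+ cells MBTPS1 had 293, 270 and 273 CPM with JQ1, against 217, 205 and 232 CPM with DMSO. Unlike MBTPS2 it was lower in VHL- cells under JQ1 (log2 -0.77, SE 0.145, adjusted p = 0.000588), and it overlapped between the lines under DMSO (log2 -0.06, adjusted p = 0.779). Its JQ1 effect passed in neither line (log2 -0.35, adjusted p = 0.0746 in VHL- cells, and log2 0.35, adjusted p = 0.0725 in VHL+ cells).

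SCAP, the escort of SREBP, had 71.6, 64.9 and 64.4 CPM in VHL- cells with JQ1, against 79.4, 72 and 68.8 CPM with DMSO. In VHL+ cells SCAP had 78.3, 82.5 and 80.8 CPM with JQ1, against 58.3, 57.7 and 69.6 CPM with DMSO. Its rise in VHL+ cells was the smallest among the members that passed there (log2 0.38, SE 0.118, adjusted p = 0.022). The call was lost in 8 of 23 alternative settings, among them the fits without VHL+ DMSO replicate 1 (adjusted p = 0.0732), VHL+ DMSO replicate 2 (0.0615), VHL+ JQ1 replicate 2 (0.0694) or VHL+ JQ1 replicate 3 (0.0641).

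Of the 5 genes of transport and liver X receptors, 3 were tested. MYLIP (chromosome 6, 16129125 to 16148248), the ligase that marks lipoprotein receptors for degradation, had 6.9, 6.79 and 8.31 CPM in VHL- cells with JQ1, against 2.2, 2.34 and 1.52 CPM with DMSO. In VHL+ cells MYLIP had 12.2, 10.7 and 11.1 CPM with JQ1, against 5.11, 2.32 and 5.39 CPM with DMSO. It rose in both lines without overlap, 3.62-fold in VHL- cells (log2 1.86, SE 0.264, adjusted p = 7.01e-05) and 2.64-fold in VHL+ cells (log2 1.40, SE 0.248, adjusted p = 0.000497). With TM7SF2 it was 1 of 2 members that rose in both. MYLIP was lower in VHL- cells under DMSO (log2 -1.08, adjusted p = 0.00518), where VHL+ DMSO replicate 2 overlapped the VHL- libraries. Under JQ1 it was lower too (log2 -0.63, adjusted p = 0.0486), a call lost in 13 of 23 alternative settings, including the fit without any 1 of the 6 JQ1 libraries (adjusted p between 0.0645 and 0.128) or without VHL- DMSO replicate 2 (0.0544).

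ABCA1, which exports cholesterol to apolipoprotein A-I, had 152, 121 and 130 CPM in VHL- cells with JQ1, against 164, 188 and 196 CPM with DMSO. In VHL+ cells ABCA1 had 124, 127 and 108 CPM with JQ1, against 155, 90.6 and 144 CPM with DMSO. Its JQ1 libraries lay below its DMSO libraries in VHL- cells, a change that did not pass (log2 -0.44, adjusted p = 0.0603), as in VHL+ cells (log2 -0.12, adjusted p = 0.642). It was higher in VHL- cells under DMSO (log2 0.49, adjusted p = 0.0404), a call lost in 10 of 23 alternative settings, among them the fit without VHL+ DMSO replicate 2 (log2 0.30, adjusted p = 0.147), VHL+ DMSO replicate 3 (0.0532), VHL- DMSO replicate 2 (0.0986), VHL- DMSO replicate 3 (0.109), any 1 of the VHL+ JQ1 libraries or VHL- JQ1 replicate 3 (adjusted p between 0.0534 and 0.0551). STARD4, a carrier of cholesterol in the cytosol that SREBP induces, had 17, 14.8 and 15.7 CPM in VHL- cells with JQ1, against 16.2, 20.2 and 23.2 CPM with DMSO. In VHL+ cells STARD4 had 36, 34.5 and 33.8 CPM with JQ1, against 26.8, 23.3 and 31.6 CPM with DMSO. It was 2.19-fold lower in VHL- cells under JQ1 (log2 -1.13, SE 0.151, adjusted p = 2.32e-05). Under DMSO it was 1.37-fold lower (log2 -0.45, adjusted p = 0.0279), a call lost without VHL- DMSO replicate 1 (adjusted p = 0.135), VHL- DMSO replicate 2 (0.0609), VHL+ DMSO replicate 1 (0.0512) or VHL+ DMSO replicate 3 (0.156). The intestinal sterol importer NPC1L1 and the exporter ABCG1 were under the filter on low counts, with at most 0.694 and 0.388 CPM in any library.

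**Figure D3:**
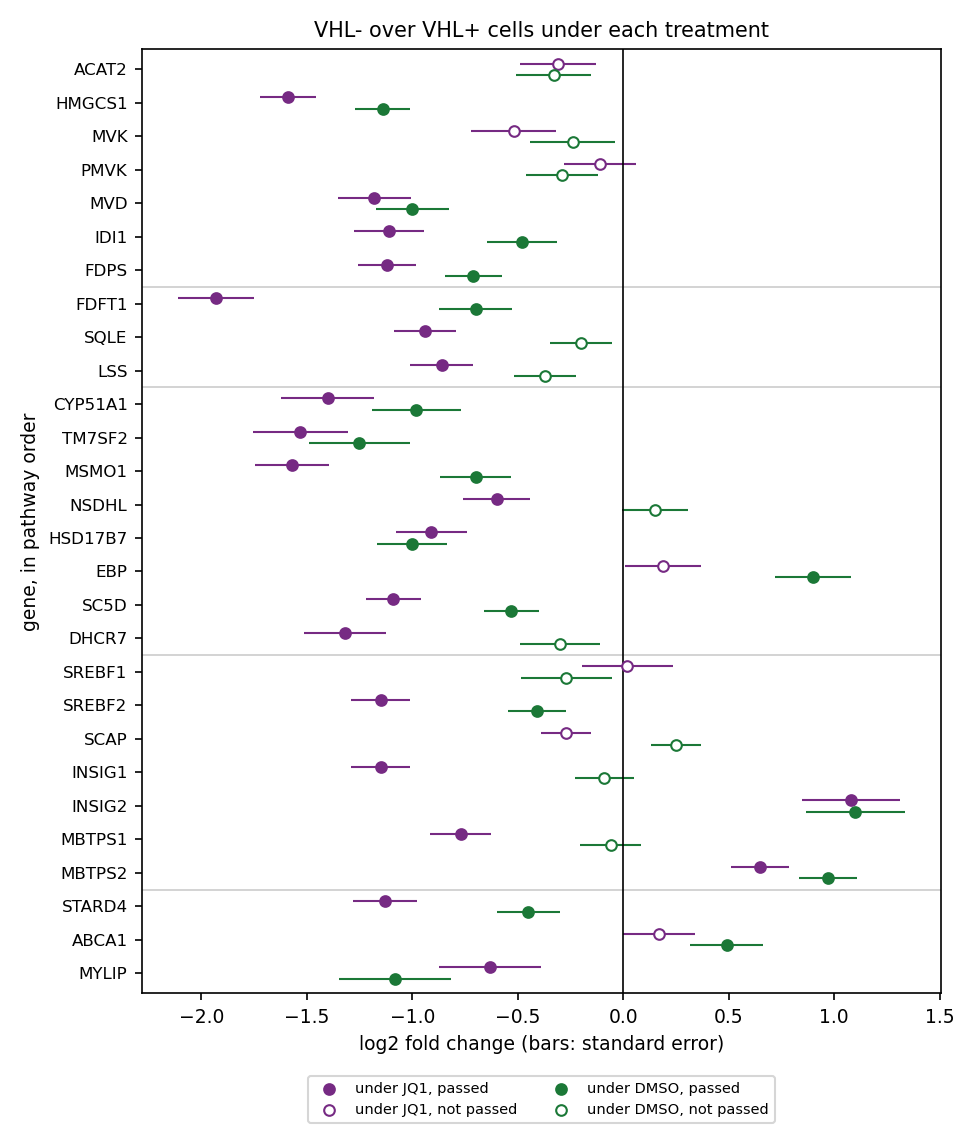
Log2 fold change of VHL- over VHL+ cells (horizontal axis, bars are standard errors) for each tested sterol gene, under JQ1 (purple) and under DMSO (green); filled points passed the threshold. Most points lie left of 0 and further left under JQ1, down to -1.93 for FDFT1, while INSIG2 and MBTPS2 lie right of 0 under both treatments.

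The libraries of the lines did not overlap for 23 of the 28 tested members under JQ1 (82.1%, against 52.9% of all tested genes) and for 16 under DMSO (57.1%, against 42.7%). By gene, 13 members were lower in VHL- cells under both treatments, and 2, INSIG2 and MBTPS2, were higher under both. SQLE, LSS, NSDHL, DHCR7, INSIG1 and MBTPS1 passed as lower under JQ1 but not under DMSO. Of these, INSIG1 alone passed the direct test of the difference given below. LSS (log2 -0.49, adjusted p = 0.187) and MBTPS1 (log2 -0.70, adjusted p = 0.0852) were among those that did not. All 4 oxygen-using enzymes of the list, SQLE, CYP51A1, MSMO1 and SC5D, were lower in VHL- cells under JQ1 (median log2 -1.25), and 3 were lower under DMSO (median log2 -0.61). The 18 enzymes had medians of -1.10 under JQ1, with 14 lower and 0 higher, and -0.50 under DMSO, with 10 lower and 1 higher. For JQ1 against DMSO, the libraries did not overlap for 13 members in VHL- cells (46.4%, against 43.1% of all tested genes) and for 15 in VHL+ cells (53.6%, against 48.2%).

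**Figure D4:**
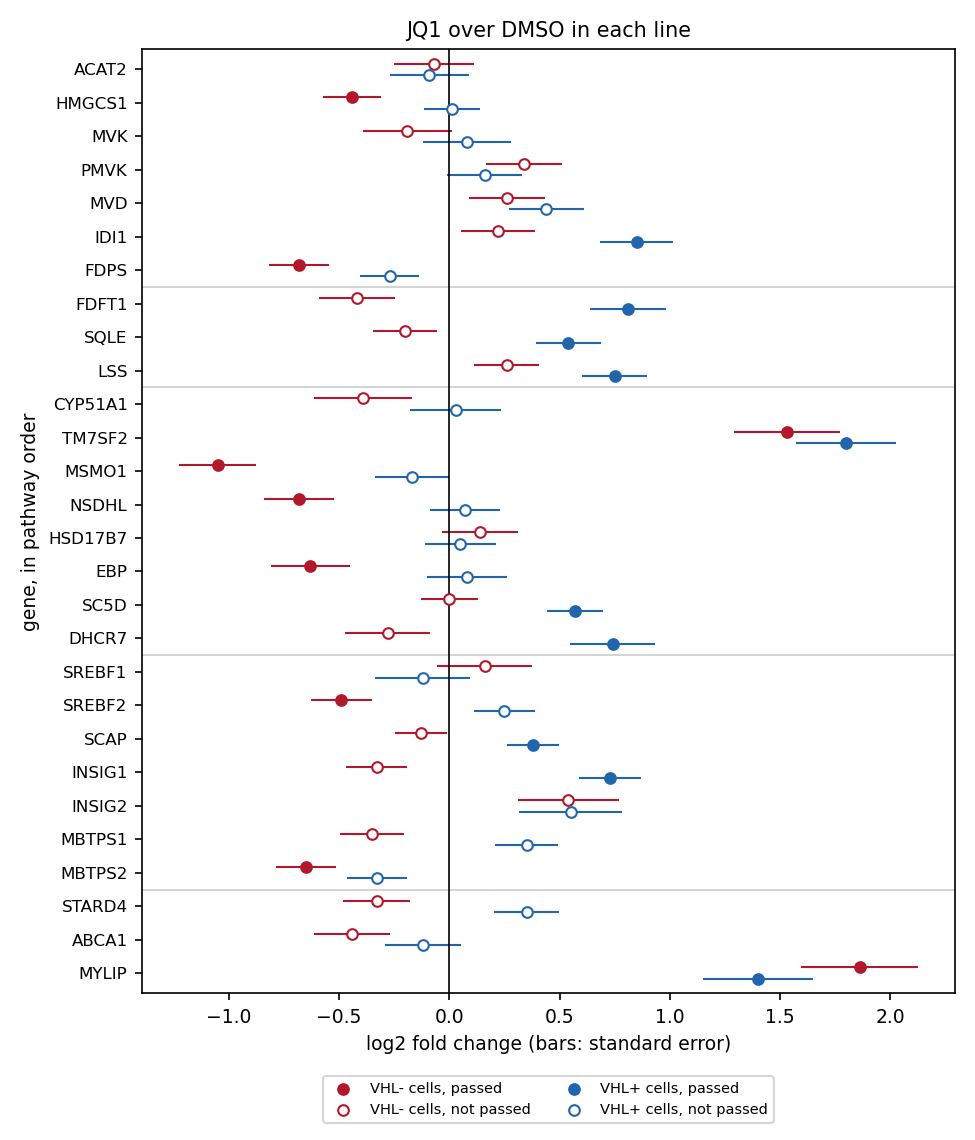
Log2 fold change of JQ1 over DMSO (horizontal axis, bars are standard errors) for each tested sterol gene in VHL- cells (red) and VHL+ cells (blue); filled points passed the threshold. TM7SF2 and MYLIP are filled right of 0 in both lines, 7 red points are filled left of 0, and all filled blue points lie right of 0.

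Whether the JQ1 effect itself differed between the lines was tested as the effect in VHL- cells minus that in VHL+ cells. FDFT1 (log2 -1.23, SE 0.244, adjusted p = 0.0237) and INSIG1 (log2 -1.06, SE 0.197, adjusted p = 0.017) passed, 2 of 28 members (7.14%, against 1.21% of all tested genes, 0.71% below and 0.497% above 0). The other 26 did not pass, 23 of the 28 values were below 0, and the median was -0.47 over members and 0.01 over all tested genes. With total counts in place of TMM, FDFT1 and INSIG1 passed below 0 and no other member did, while 56.3% of all called genes were above 0, in place of 41.2%. In the main fit, no member both fell past the threshold in VHL- cells and rose past it in VHL+ cells. Without VHL- JQ1 replicate 1, FDFT1 (log2 -0.69, adjusted p = 0.00209), INSIG1 (log2 -0.47, adjusted p = 0.0164) and MBTPS1 (log2 -0.54, adjusted p = 0.00464) fell past it in VHL- cells. Each also passed as higher in VHL+ cells in that fit. FDFT1 did both with total counts alone or with no filter, SREBF2 without VHL+ DMSO replicate 3, and STARD4 without VHL- DMSO replicate 1. In the test of the difference, next in size were DHCR7 (log2 -1.02, adjusted p = 0.0714), MSMO1 (log2 -0.87, adjusted p = 0.0789), SQLE (log2 -0.75, adjusted p = 0.0778), NSDHL (log2 -0.75, adjusted p = 0.0906) and SREBF2 (log2 -0.74, adjusted p = 0.0707). TM7SF2 (log2 -0.28, SE 0.325, adjusted p = 0.631), INSIG2 (log2 -0.01, SE 0.325, adjusted p = 0.986) and MYLIP (log2 0.46, SE 0.358, adjusted p = 0.459) were among those that did not pass. This comparison turned on single libraries. Without VHL- JQ1 replicate 1, 13 members passed, all below 0, and 3510 of all genes passed in place of 250. Without VHL- JQ1 replicate 3, or without VHL+ JQ1 replicate 1, 2 or 3, 0 members passed, and without VHL+ DMSO replicate 3, 4 did. FDFT1 without those JQ1 libraries had log2 values between -1.20 and -1.28 (adjusted p between 0.0631 and 0.0981), and INSIG1 between -1.06 and -1.10 (adjusted p between 0.0594 and 0.0739). DESeq2 called 11 members, all of which were among the 13 called without VHL- JQ1 replicate 1.

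**Figure D5:**
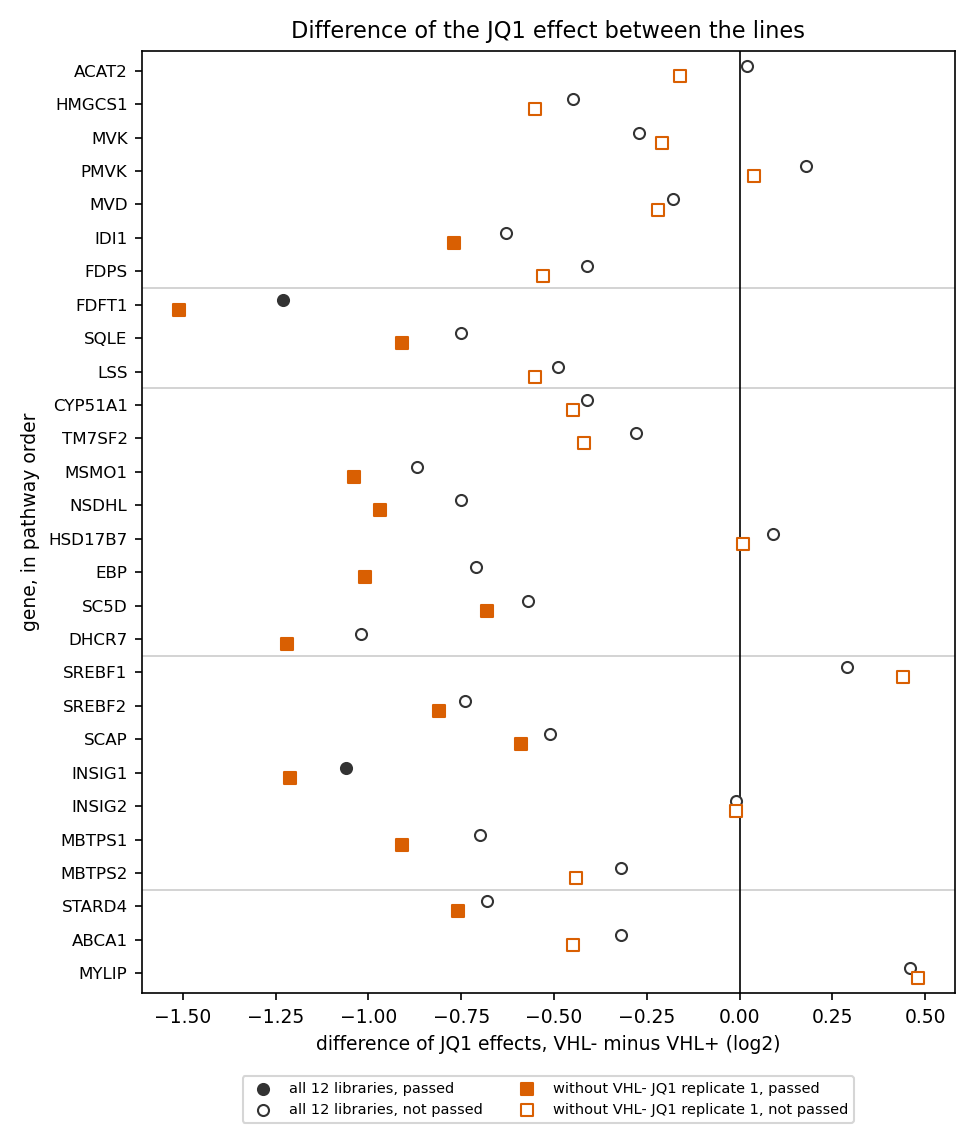
Difference of the JQ1 effects, VHL- minus VHL+ (horizontal axis, log2), for each tested sterol gene with all 12 libraries (dark circles) and without VHL- JQ1 replicate 1 (orange squares); filled symbols passed the threshold. FDFT1 and INSIG1 are filled with all libraries, 13 genes are filled without that library, and the squares of most enzymes lie further left.

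Per kilobase of exon, DHCR7 had the highest level of the enzymes in VHL+ cells with JQ1 (52.2 CPM per kb), followed by FDFT1 (40.2), SQLE (26.5) and NSDHL (23.6). In VHL- cells with JQ1 the order was DHCR7 (20.9), NSDHL (15.6), PMVK (15.2) and SQLE (13.8), with FDFT1 at 10.5 CPM per kb. In VHL- cells with DMSO DHCR7 (25.3) and NSDHL (25.1) were level, and in VHL+ cells with DMSO DHCR7 (31.2) stood before FDFT1 (22.9) and NSDHL (22.6). CYP51A1 and HSD17B7 were the lowest enzymes in all 4 groups, between 0.653 and 1.88 CPM per kb. The rank of CYP51A1 is uncertain, since 83.2% of its exon bases overlap other genes. Among the control genes, INSIG1 had 16.8 and INSIG2 11.6 CPM per kb in VHL- cells with JQ1, while in VHL+ cells with JQ1 INSIG1 had 37.2 and INSIG2 5.46 CPM per kb. SREBF2 had 11.5 and 16.2 CPM per kb in VHL- cells with JQ1 and with DMSO, and 25.7 and 21.6 CPM per kb in VHL+ cells with JQ1 and with DMSO. Exon lengths are unions over all annotated transcripts, so these levels depend on which transcripts the cells use.

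Genes next to the pathway gave a mixed picture. Of 12 fatty acid targets of SREBP, 5 were lower and 0 higher in VHL- cells under JQ1 (41.7% called, near the 40.9% of all tested genes), and 4 rose and 1 fell with JQ1 in VHL+ cells (41.7%, against 31.8% of all). The desaturase FADS2 averaged 48.5 ± 5.31 CPM in VHL- cells and 154 ± 5.46 CPM in VHL+ cells under JQ1 (SD, n = 3 each; edgeR log2 -1.66, adjusted p = 2.25e-06). MID1IP1, an activator of acetyl-CoA carboxylase, fell with JQ1 in VHL- cells (log2 -0.77, adjusted p = 0.00338) and had a log2 of 0.42 in VHL+ cells (adjusted p = 0.0783), and this difference passed (log2 -1.19, adjusted p = 0.0298). That call was lost without any 1 of replicate 1 or 3 of VHL- DMSO (adjusted p = 0.0503 and 0.0653), replicate 3 of VHL- JQ1 (0.0995), replicate 1 of VHL+ DMSO (0.0511) and replicates 1, 2 and 3 of VHL+ JQ1 (0.0924, 0.0684 and 0.0851). ELOVL6, a fatty acid elongase, fell with JQ1 in VHL- cells (log2 -1.20, adjusted p = 0.000333), and ACSS2, which makes acetyl-CoA from acetate, rose in VHL+ cells (log2 0.72, adjusted p = 0.00413). Under DMSO, ELOVL6 was higher in VHL- than in VHL+ cells (log2 1.14), a call kept in all 23 alternative settings. Of the 12 fatty acid targets, 2 were higher and 2 lower in VHL- cells under DMSO (33.3% called, against 30.7% of all tested genes). Of 16 genes of the isoprenoid branch, 8 fell and 2 rose with JQ1 in VHL- cells (62.5% called, against 32.1% of all tested genes), and 4 fell and 5 rose in VHL+ cells (56.2%, against 31.8%). ZMPSTE24 was among the 8 that fell in VHL- cells (log2 -0.63). GGPS1, which makes geranylgeranyl diphosphate beyond FDPS, rose in both lines, with 33.3 ± 6.15 CPM under JQ1 against 13.3 ± 2.88 CPM under DMSO in VHL- cells, and 60 ± 1.58 against 18.7 ± 1.65 CPM in VHL+ cells (SD, n = 3 each; log2 1.32, adjusted p = 1.81e-05, and log2 1.68, adjusted p = 2.44e-06). Of 18 tested genes of sterol trafficking and storage, 6 were lower and 3 higher in VHL- cells under DMSO (50% called, against 30.7% of all). Under JQ1, 5 were lower and 0 higher (27.8%, against 40.9%), among them the lysosomal acid lipase LIPA (log2 -1.10, adjusted p = 0.000149) and the sterol carrier OSBPL9 (log2 -0.96, adjusted p = 7.95e-05). Of 17 genes of sterol sensing and liver X receptor control, 4 were lower and 3 higher there (41.2%, near the 40.9% of all). SEC24D, a coat protein of vesicles leaving the endoplasmic reticulum, fell with JQ1 in VHL- cells (log2 -0.45, adjusted p = 0.0171) and VHL+ cells (log2 -0.91, adjusted p = 0.00011), and its call in VHL- cells was lost without VHL- DMSO replicate 1 (adjusted p = 0.0799) or VHL- JQ1 replicate 3 (0.0928).

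In the authors' deposited table of JQ1 against DMSO, 10 members were higher and 0 lower in VHL+ cells, the same 10 genes as above. In the authors' deposited table for VHL- cells, 2 were higher and 9 lower, which are the 9 called here and, in addition, MBTPS1 and ABCA1 as lower.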

How the data were processed

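The authors deposited a table of raw counts per Ensembl gene for the 12 libraries. Per the labels' protocols, total RNA was DNase-treated and depleted of ribosomal RNA. Per the submitters' processing notes, the build was GRCh38 and the tools included DESeq2 1.30.1, featureCounts, Subread 2.0.3 and STAR 2.7.8; annotation and strand setting are not given in the sources used here. The authors also deposited their comparisons of JQ1 with DMSO, with fold changes and standard errors as log2 values, a test statistic (a score), and p-values, raw and adjusted. Those deposited tables also hold a mean of normalised counts. Counts were analysed with R 4.3.3, edgeR 4.0.16 (TMM, filterByExpr by group, quasi-likelihood, 1 mean per group, all 12 libraries), limma 3.58.1 and DESeq2 1.42.0. The tested 20714 genes hold 99.87% of counts. GENCODE release 29 gave positions and exon lengths for 58395 of the 60663 gene IDs. Motifs were searched in RefSeq promoter windows. All listed members are named; of each neighbouring list, up to 4 genes with the smallest p were eligible, and not all of these are given. The members and lists were chosen with earlier results of these data known. The edgeR fit was tested on simulated counts for JQ1 against DMSO in each line and for the difference of JQ1 effects. The comparisons between the lines and the other methods were not tested in this way.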

Additional observations from a re-analysis of the deposited data

Results flagged for a closer look

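The JQ1 effect, taken as VHL- minus VHL+ cells, differed between the lines past the threshold for 2 sterol genes and 1 neighbouring gene in edgeR (quasi-likelihood, Benjamini-Hochberg adjustment). FDFT1 had a difference of log2 -1.23 (adjusted p = 0.0237) and INSIG1 of log2 -1.06 (adjusted p = 0.017). MID1IP1, a fatty acid target of SREBP, had a difference of log2 -1.19 (adjusted p = 0.0298), and this call was lost in 9 of 22 alternative settings. Each of the FDFT1 and INSIG1 calls was lost in 6 of 22 alternative settings, and 13 sterol genes passed when VHL- JQ1 replicate 1 was left out.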

How the results depend on the processing

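Of 59 calls on sterol genes over the 5 comparisons, 46 were kept under every alternative and 13 were lost under at least 1. Leaving out 1 library at a time gave 7 to 13 called members for JQ1 in VHL- cells, 9 to 12 for JQ1 in VHL+ cells, 20 to 23 for VHL- against VHL+ cells under JQ1, 13 to 18 under DMSO, and 0 to 13 for the difference of JQ1 effects. For that difference, 2 members passed as reported, 11 with DESeq2, 7 with no filter on low counts, 0 at an adjusted p under 0.01, 0 without JQ1 replicate 3 of both lines, and 0 without both libraries of lowest depth, VHL- JQ1 replicate 2 and VHL+ JQ1 replicate 3. That last alternative and a fit of protein-coding genes only were chosen after seeing the data; the cause of these changes was not tested. Without JQ1 replicate 3 of both lines, the JQ1 calls on HMGCS1, EBP and SREBF2 in VHL- cells and on SQLE in VHL+ cells, and the call on NSDHL between the lines under JQ1, were also lost. Over all tested genes the difference gave 250 calls, 1283 with DESeq2, 1336 with no filter, 25 without JQ1 replicate 3 of both lines, and 43 to 3510 with 1 library left out. Changes of sign were seen in values that passed neither way. For JQ1 in VHL- cells, ACAT2 had 0.07 and SREBF1 -0.04 without both libraries of low depth, and ACAT2 had 0.01 with protein-coding genes only. For JQ1 in VHL+ cells, total counts alone gave HMGCS1 -0.10, MVK -0.05, CYP51A1 -0.10, NSDHL -0.04, HSD17B7 -0.06 and EBP -0.03; HMGCS1 had -0.01 with a filter of 1 CPM in 3 libraries, -0.01 in a fit of the compared groups and -0.03 with protein-coding genes only, where CYP51A1 had -0.02. Between the lines under JQ1, PMVK had 0.03 with total counts alone and 0.02 without both libraries of low depth, and SREBF1 had -0.02 with no filter, -0.01 with limma-voom and -0.16 without both libraries of low depth. For the difference, INSIG2 had 0.07 with total counts alone, 0.06 with the filter of 1 CPM and 0.13 with protein-coding genes only, and ACAT2 had -0.03 with no filter and -0.02 with DESeq2. With 1 library left out, signs changed within the ranges -0.30 to 0.03 (ABCA1), -0.15 to 0.02 (ACAT2), -0.13 to 0.22 (CYP51A1), -0.13 to 0.32 (MVK), -0.04 to 0.14 (NSDHL) and -0.33 to 0.12 (SREBF1) for JQ1 in VHL+ cells. They also changed within -0.23 to 0.10 (ACAT2) and -0.04 to 0.34 (SREBF1) for JQ1 in VHL- cells, where SC5D, at 0.00, ran between -0.10 and 0.10, within -0.11 to 0.40 (EBP), -0.25 to 0.06 (PMVK) and -0.19 to 0.18 (SREBF1) between the lines under JQ1, and within -0.16 to 0.21 (ACAT2) and -0.45 to 0.16 (INSIG2) for the difference. Deviations of libraries with the same replicate number correlated between -0.26 and 0.335 (median 0.0102). Those of libraries with other numbers correlated between -0.381 and 0.203 (median 0.0133), and 6 of 12 libraries were closest to their own number. These values do not settle whether the numbers mark pairs, and the main fit did not use them as pairs. A replicate block gave 9 called members for JQ1 in VHL- cells, 10 in VHL+ cells, 20 between the lines under JQ1, 17 under DMSO and 2 for the difference; the call on MYLIP between the lines under JQ1 was lost with it (adjusted p = 0.0512), and every other call on a sterol gene or on a named neighbouring gene was kept. Of 42 calls on the neighbouring genes of smallest p, 30 were kept under every alternative, 12 were lost under at least 1 and 0 changed sign. Counting the bases before the start alone left the motif counts of the members as they were, except CACGTG in 4 and ACGTG in 7.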
